A study of Homo sapiens with 3 samples.

Results

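The ZNF genes of chromosome 19 were taken as every protein-coding row of the deposited gene table whose symbol is ZNF followed by a number, with or without a closing letter, and whose locus lies on that chromosome. This rule found 246 of the 58302 genes in the table. A further 262 protein-coding ZNF genes lie on other chromosomes, and 1221 other protein-coding genes lie on chromosome 19. The rule used names and positions, with no measured value.

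The study used HCT116, a long-established line of human colorectal carcinoma cells, and sequenced its total RNA as 3 libraries. One library came from cells given a control siRNA, and the other 2 came from cells given an siRNA against DUOX2, with a different sequence in each (siRNA 1 and siRNA 2). DUOX2 is an oxidase that produces hydrogen peroxide, and the series compared cells labelled as low in it with control cells. The labels name no dose, no time after transfection and no separate cultures, so any p-value rests on the spread between these siRNA libraries only. The tests borrow that spread in part from other genes. It may be technical or come from the different siRNA sequences, which cannot be told apart here.

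The library totals were 17589502 counts for the control, 19130768 for siRNA 1 and 18832672 for siRNA 2. DUOX2 itself had 2, 2 and 0 counts in that order, at or under the 3 counts taken as the limit of detection (0.157 to 0.171 CPM, which is a count relative to the total of its library), so a lower DUOX2 level was not detectable at this depth and the target does not check the labels. The library protocol in the labels speaks of retinas. The 12 retina markers summed to 3.26, 2.53 and 1.85 CPM, with 7 of them, SAG and CRX included, at 0 counts in every library. Colorectal epithelium markers summed to 5122, 3466 and 4897 CPM, although CDX1 had no counts and KRT20 had 2, 0 and 4. Markers of leukocytes, fibroblasts and endothelium summed to at most 3.64 CPM in any library. All of these marker sums use CPM scaled by TMM, a trimmed mean of gene ratios between libraries, rather than by the plain library total.

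ZNF genes encode proteins with rows of C2H2 zinc fingers, short folds in which a pair of cysteines and a pair of histidines hold a zinc ion and neighbouring side chains read bases of DNA. Many of them also carry a KRAB domain, which recruits the corepressor TRIM28 (KAP1) and, through it, the histone methyltransferase SETDB1 and HP1 proteins. This machinery is best known for silencing retrotransposons in early development. Human chromosome 19 holds large clusters of such genes, formed by repeated tandem duplication.

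The family's coding sequence showed this architecture in 245 of the 246 genes, which held at least 1 finger in the GENCODE 29 protein. The exception, ZNF738, held a KRAB motif and no finger. The median was 12.5 fingers and the range ran from 0 to 39, the highest being ZNF729. A KRAB motif, searched as short letter patterns in the same protein, was found in 208 genes, with a median of 13 fingers. It was not found in 38, with a median of 9.5. Genes said to lack KRAB, here and below, are those without a match. A KRAB domain that the patterns missed is counted among them. KRAB genes were poor in G and C, with a median of 41.8% over the longest transcript and a range of 33.9% to 59.8%. The genes without the motif had a median of 58.3% and ranged from 35.9% to 71.1%. Base composition also differed between the repeat units shown here. Each is given as 1 finger with its linker, 84 bases of coding sequence from GENCODE 29 on GRCh38, 5′ to 3′, with the codons of the 2 cysteines and 2 histidines in capitals, for a KRAB gene that was high with both siRNAs (ZNF791), another (ZNF766), a KRAB gene that was low with both (ZNF440) and a gene without KRAB that was low (ZNF787).
ZNF791: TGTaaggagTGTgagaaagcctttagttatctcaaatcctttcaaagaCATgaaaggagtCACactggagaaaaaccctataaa
ZNF766: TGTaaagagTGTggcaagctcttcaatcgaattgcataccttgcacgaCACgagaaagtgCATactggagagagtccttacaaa
ZNF440: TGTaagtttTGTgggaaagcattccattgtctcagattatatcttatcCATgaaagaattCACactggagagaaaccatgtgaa
ZNF787: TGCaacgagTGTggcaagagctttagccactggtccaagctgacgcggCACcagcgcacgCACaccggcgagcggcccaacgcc
The units shown were 36.9%, 44.05%, 35.7% and 66.7% G and C. Against the ZNF791 unit, the ZNF766 unit was identical at 51 of 84 bases, the ZNF440 unit at 61 and the ZNF787 unit at 40, and the encoded fingers at 16, 16 and 14 of 28 residues. The 246 genes together held 1763 such units in 235 genes, with a G and C content of 29.8% to 78.6%. Only 17 unit sequences occurred in more than 1 gene. Over whole transcripts, 69 of the 246 genes shared at least 10% of their 50-base words with another gene and 60 shared at least 10% of their exon bases with an overlapping gene. The 86 genes with either feature are called uncertain below, since the deposited counts may divide such reads in ways not given in the sources used here.

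Most chromosome 19 ZNF genes were transcribed at a low level. Of the 246, 38 had no count in any library, 35 of them KRAB genes. A count of 0 allows up to 3 counts, so these genes were not detected at this depth rather than absent. A further 12 had at most 9 counts in a library and were not tested. The 196 genes that passed the filter on low counts had a median of 144.5 control counts, with 147.5 for siRNA 1 and 156 for siRNA 2. Their median deposited FPKM was 0.943, 0.828 and 0.935, against 3.33, 2.76 and 2.98 for all tested protein-coding genes. All 246 genes together took 43337, 47118 and 47738 counts, or 2464, 2463 and 2535 CPM of the library totals. On that scale the summed output of the family was about the same in all 3 libraries. The fold changes below use TMM scaling instead. Its factors were 1.047, 0.9505 and 1.004, which would place the control sum lower and the siRNA 1 sum higher.

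The most abundant member was ZNF146, a protein made up almost wholly of zinc fingers, at 21.8, 30.0 and 30.9 FPKM. ZNF787 followed at 13.2, 4.19 and 6.10 FPKM, and ZNF428 at 9.61, 3.52 and 4.59. ZNF358 had 6.35, 1.72 and 3.15 FPKM, ZNF580 had 6.23, 3.11 and 1.89, and ZNF526 had 6.02, 3.03 and 3.72. None of these 6 carried the KRAB motif. ZNF146 was higher than the control in both siRNA libraries, and the other 5 were lower in both. ZNF146, ZNF428, ZNF358 and ZNF580 are uncertain, each sharing between 10.8% and 34.4% of its exon bases with a neighbour. The FPKM length counted overlapping exons of different transcripts repeatedly. Per kilobase of merged exons ZNF146 and ZNF787 stayed the highest 2, while ZNF480, a KRAB gene, moved from rank 16 to rank 5, as the plot of level on both scales shows.

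**Figure D1:**
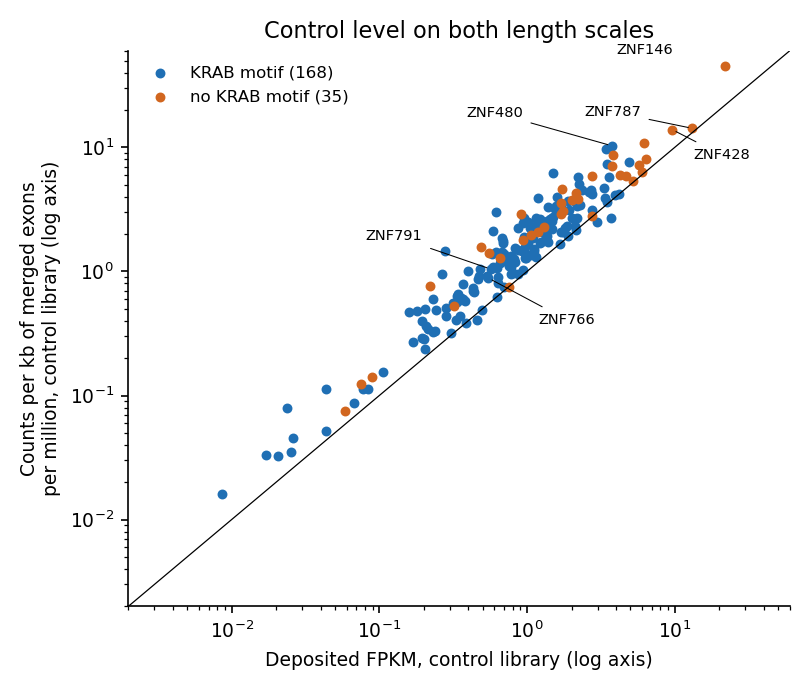
Control level of each ZNF gene with at least 1 count in the control library, as deposited FPKM (x axis) and as CPM per kilobase of merged exons (y axis), both on log axes, with KRAB genes in blue and genes without the motif in orange. The line marks equal values, and most points lie above it because the deposited length was a median of 1.71 times the merged exon length.

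The comparison of both siRNA libraries with the control asked which of these genes differ when DUOX2 is targeted. In edgeR's quasi-likelihood test with Benjamini-Hochberg adjustment over all 17263 tested genes, 0 of the 196 tested members passed the threshold of 0.05. The background was 10 genes, or 0.0579% of all tested (0.0174% higher and 0.0405% lower). At 0.10, 2 members passed, ZNF791 and ZNF766, both higher, against 0.365% of all tested genes (0.156% higher and 0.209% lower). An unadjusted p under 0.05 was found for 22 members on the higher side (11.2%) and 25 on the lower side (12.8%), near the 11.5% and 14.5% of all tested genes. DESeq2, run on the same counts, gave an adjusted p under 0.05 to 5 of the 129 members it returned a value for, against 4.66% of all genes with a value. Of these 5, 4 were higher (ZNF791, ZNF766, ZNF260 and ZNF100; background 2.19%) and 1 was lower (ZNF787; background 2.47%).

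By size, 6 members were at least 2-fold higher than the control with both siRNAs, and 10 were at least 2-fold lower. These are 3.06% and 5.10% of the tested members, beside 4% and 5.05% of all tested genes. Over tested protein-coding genes the shares were 1.33% and 5.53%. The family's share on the higher side thus lay under that of the whole table and over that of protein-coding genes, and its lower share was near both. With siRNA 1 alone, 13 members were at least 2-fold higher and 24 lower, against 8.06% and 12.4% of all tested genes (6.63% and 12.2% of members). With siRNA 2 alone, 11 were higher and 19 lower, against 5.54% and 7.84% (5.61% and 9.69% of members). Both fold changes use the same control library. Fold changes are differences of log2 CPM, scaled by TMM (a trimmed mean of gene ratios between libraries), with a prior count of 2. The control lay below both siRNA libraries for 89 members (45.4%, against 41.9% of all tested genes) and above both for 56 (28.6%, against 41.6%). It lay between them for the other 51. Over the tested members, siRNA 1 gave a median log2 fold change of 0.15 and siRNA 2 one of 0.11, beside 0.02 and -0.01 over all tested genes. Scaling by total count gave 72 higher and 64 lower in place of 89 and 56, and the direction of the split turned with the trend on base composition removed (39 higher, 90 lower). With that trend removed, the medians over the 17209 tested genes of known composition were 0.01 and 0.01. The split over all tested genes was not counted under that setting.

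**Figure D2:**
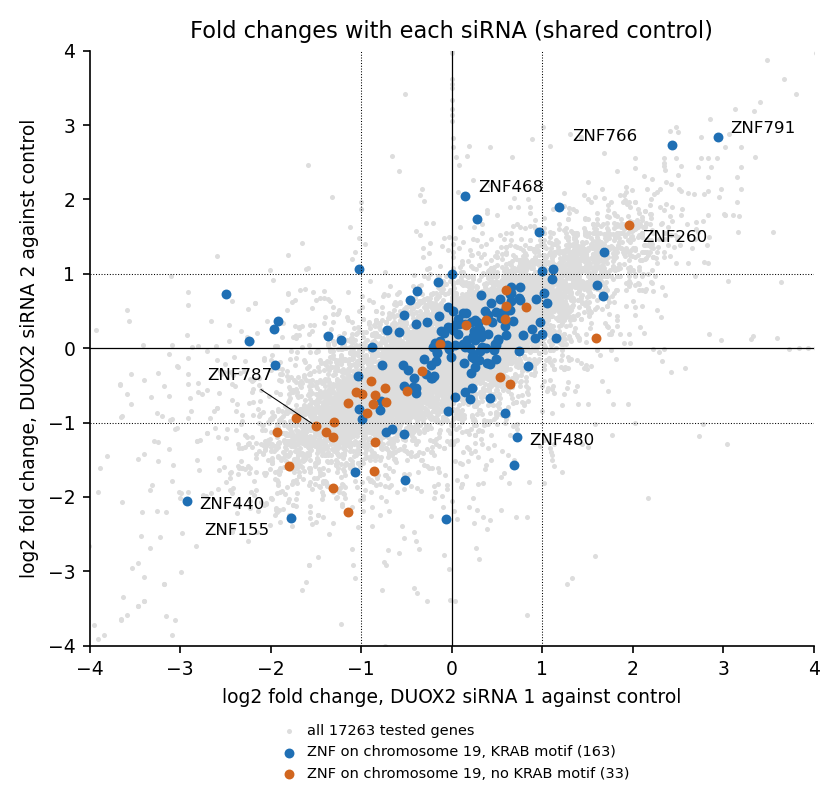
Log2 fold change with siRNA 1 (x axis) against that with siRNA 2 (y axis) for all 17263 tested genes in grey, 163 ZNF genes with a KRAB motif in blue and 33 without in orange; dotted lines mark 2-fold, and 80 genes lie outside the axes. Both axes share the control library, which by itself places points along the diagonal; ZNF791 and ZNF766 stand at the upper right and ZNF440 at the lower left.

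ZNF791 had the highest values of the family in both comparisons. This KRAB gene with 17 fingers (ENSG00000173875, chromosome 19, 12610918 to 12633840, plus strand, GRCh38) had 122 control counts, 938 for siRNA 1 and 908 for siRNA 2. As a share of the library these were 6.94 CPM (95% Poisson interval 5.76 to 8.28), 49.0 CPM (45.9 to 52.3) and 48.2 CPM (45.1 to 51.5). Both siRNA libraries were far above the control and within each other's counting intervals. The log2 fold change was 2.91 ± 0.27 (SE, edgeR adjusted p = 0.0580). In linear terms, on the TMM scale with a prior count of 2, siRNA 1 gave a 7.68-fold and siRNA 2 a 7.15-fold higher level. DESeq2 gave an adjusted p of 1.45e-12.

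ZNF766 came next. This KRAB gene with 7 fingers (ENSG00000196214, chromosome 19, 52269571 to 52296046, plus strand) had 114, 617 and 787 counts, or 6.48 CPM (5.35 to 7.79), 32.3 CPM (29.8 to 34.9) and 41.8 CPM (38.9 to 44.8). The siRNA libraries again lay far above the control, and siRNA 2 was above siRNA 1 beyond counting error. The log2 fold change was 2.61 ± 0.29 (SE, edgeR adjusted p = 0.0708), and DESeq2 gave an adjusted p of 5.22e-08. Under the other settings tried apart from DESeq2, the adjusted p ranged from 0.098 to 0.34 for ZNF791 and from 0.110 to 0.34 for ZNF766, so that no such setting put ZNF766 under 0.10. Neither gene shares exon bases with another gene, and 2.2% and 1.7% of their 50-base words occur elsewhere.

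Genes next to these had values of their own. ZNF791 lies within the span of ZNF490, which is on the other strand and had 113, 107 and 22 counts, while ZNF564 had 133, 115 and 144 and MAN2B1, a lysosomal mannosidase, had 931, 508 and 650. Around ZNF766, ZNF616 had 135, 290 and 267 counts, ZNF836 had 141, 92 and 169, and PPP2R1A, a scaffold subunit of the phosphatase PP2A, had 2998, 1355 and 2135. ZNF480 starts 1131 bases after the end of ZNF766 on the same strand and had 875, 1419 and 393 counts. ZNF490 and ZNF564 are uncertain, sharing 61.3% and 69.9% of their exon bases with AC010422.6, and so is ZNF836, which shares 13.1% with AC011468.2.

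Another 6 genes were named as the next highest by the smaller of their fold changes. ZNF260, which has 13 fingers and no KRAB motif, had 147 control counts, 571 for siRNA 1 and 481 for siRNA 2 (log2 fold change 1.83 ± 0.28 SE, edgeR adjusted p = 0.105, DESeq2 adjusted p = 0.00139). ZNF100, a KRAB gene, had 146, 466 and 369 counts (1.51 ± 0.30 SE, edgeR adjusted p = 0.112, DESeq2 adjusted p = 0.0278). In both, siRNA 1 was the higher of the siRNA libraries, and the control was the lowest. ZNF101 had 125, 271 and 271 counts, and ZNF675, known as an inhibitor of TRAF6 signalling, had 133, 263 and 282. ZNF583 had 22, 52 and 90 counts and ZNF681 had 27, 54 and 86, with siRNA 2 the higher of the siRNA libraries in each. None of these 6 shared more than 5% of its exon bases or words with another gene. ZNF675 and ZNF681 were just under 2-fold with siRNA 1, at log2 fold changes of 0.99 and 0.97. With the trend on base composition removed, the fitted log2 fold change was 0.89 for ZNF100, 0.51 for ZNF675 in place of 1.02 and 0.75 for ZNF681 in place of 1.36. For ZNF583 it was 0.99 in limma on FPKM in place of 1.67.

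ZNF440, a KRAB gene with 11 fingers (ENSG00000171295, chromosome 19, 11814284 to 11835201, plus strand), was the lowest member by the smaller of its fold changes. The control gave 144 counts, siRNA 1 gave 17 and siRNA 2 gave 34, or 8.19 CPM (6.90 to 9.64), 0.889 CPM (0.518 to 1.42) and 1.81 CPM (1.25 to 2.52). Both siRNA libraries lay below the control by more than counting error, and their own intervals overlapped. On the TMM scale with a prior count of 2, they were 7.60-fold and 4.16-fold lower. The log2 fold change was -2.51 ± 0.45 (SE, edgeR adjusted p = 0.112), and DESeq2 returned no adjusted p for it. Its neighbour ZNF441 had 171, 292 and 199 counts and ZNF69 had 75, 55 and 58.

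The other 7 lowest genes were ZNF155, ZNF446, ZNF837, ZNF865, ZNF296, ZNF579 and ZNF653, and of these ZNF155 alone matched the KRAB patterns. ZNF155 had 164, 46 and 33 counts, ZNF446 had 171, 47 and 57, and ZNF653 had 168, 62 and 78. These 3 are uncertain: ZNF155 shares 41.4% of its exon bases with AC006213.1 (8, 10 and 11 counts), ZNF446 shares 58.5% with ZNF324 (132, 32 and 162 counts) and ZNF653 shares 14.5% with AC008481.3. ZNF865, with 21 fingers and the highest G and C content of the family at 71.1%, had 374, 147 and 166 counts. ZNF837 had 66, 25 and 17 counts, ZNF296 had 115, 50 and 24, and ZNF579 had 164, 41 and 76. ZNF787 and ZNF763 completed the 10 genes at least 2-fold lower; ZNF763, uncertain, had 32, 14 and 9 counts. With the trend on base composition removed, the fitted log2 fold change was -1.12 for ZNF446 in place of -1.73, -0.34 for ZNF837 in place of -1.65, -0.42 for ZNF296 in place of -1.63, -0.49 for ZNF579 in place of -1.50 and -0.28 for ZNF653 in place of -1.27. In all 7 of the genes named first the control was the highest library, and the edgeR adjusted p lay between 0.112 and 0.14.

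**Figure D3:**
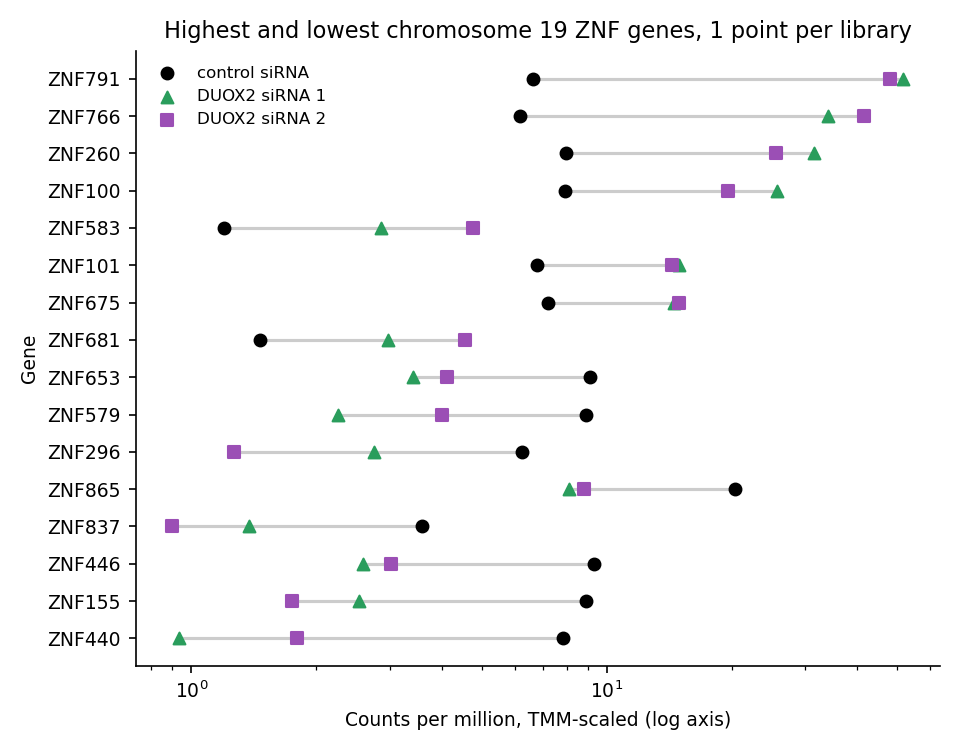
TMM-scaled CPM on a log axis, of the 8 highest and 8 lowest chromosome 19 ZNF genes by the smaller of their fold changes, with 1 point per library (circle for control, triangle for siRNA 1, square for siRNA 2). The control point lies to the left of both siRNA points in the upper 8 genes and to the right of both in the lower 8, which is how they were chosen; ZNF791 has the widest gap of the upper 8 genes and ZNF440 of the lower 8.

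KRAB genes and genes without the motif had medians of opposite sign. The 163 tested KRAB genes had median log2 fold changes of 0.21 (siRNA 1) and 0.18 (siRNA 2), with 81 (49.7%) above the control in both libraries and 34 (20.9%) below it in both. The 33 tested genes without the motif had medians of -0.85 and -0.62, with 8 (24.2%) above and 22 (66.7%) below. Over all tested genes these shares were 41.9% and 41.6%. Over protein-coding genes they were 74.8% and 8.17% under 45% G and C, and 17.8% and 67.0% at 45% or more. Of the 127 tested KRAB genes under 45%, 70 (55.1%) were above the control in both libraries and 19 below it. Of the 36 at 45% or more, 11 (30.6%) were above it and 15 (41.7%) below. At least 2-fold with both siRNAs, the KRAB genes counted 5 higher (3.07%) and 3 lower (1.84%). Those without the motif counted 1 higher (3.03%) and 7 lower (21.2%). Over all tested genes these shares were 4% and 5.05%. The lower share was 8.42% of protein-coding genes at 45% G and C or more, and 22.9% of other protein-coding genes at 60% or more. ZNF787, which passed in DESeq2 (adjusted p = 0.0362), had 918, 318 and 456 counts and belongs to the genes without the motif. The KRAB genes of other chromosomes, 97 tested, had medians of 0.25 and 0.07.

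Base composition moved with this difference. Across the 196 tested members, G and C content and log2 fold change had a Spearman correlation of -0.54 with each siRNA (Pearson -0.53 and -0.54), and within the 163 KRAB genes it was -0.38 and -0.42 (Pearson -0.32 and -0.37). Over all 17209 tested genes with known composition it was -0.68 and -0.64. These points share their libraries, including the control, and are a description. With members split at 45% G and C, the 11 genes without KRAB under it had medians of 0.60 and 0.38, while the 22 at or above it had -1.03 and -0.85, with 0 higher and 21 lower in both libraries (95.5%, against 67.0% of protein-coding genes in that range). The 127 KRAB genes under 45% had medians of 0.27 and 0.19 and the 36 at or above it had -0.04 and -0.04. Protein-coding genes of the whole table had 0.43 and 0.34 under 45% and -0.44 and -0.33 at or above it.

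Within bands of similar composition, the medians of the members lay under those of the other protein-coding genes in most bands. Under 38%, 26 members had medians of 0.66 and 0.67, against 0.62 and 0.48 in the other genes. Between 38% and 40%, 27 members had 0.31 and 0.26 against 0.50 and 0.41. Between 40% and 42%, 39 members had 0.30 and 0.31 against 0.42 and 0.33. Between 42% and 44%, 34 members had 0.16 and 0.05 against 0.32 and 0.25. Between 44% and 48%, 35 members had 0.01 and 0.05 against 0.17 and 0.14. Between 48% and 60%, 20 members had -0.51 and -0.58 against -0.38 and -0.28. At 60% or more, 15 members had -1.15 and -1.04 against -1.03 and -0.76, and all 15 were below the control in both libraries, as were 94.6% of the other genes of that band. With the trend of each fold change on composition removed, the median was -0.16 and -0.14 for KRAB genes and -0.03 and -0.06 for genes without the motif. Over tested protein-coding genes it was -0.02 and -0.01. ZNF791 then stood at 2.56 and 2.55, ZNF766 at 2.01 and 2.40, ZNF260 at 1.39 and 1.21 and ZNF440 at -3.32 and -2.36, whereas ZNF787 stood at -0.02 and 0.08 and ZNF865 at 0.21 and -0.04. The part of base composition in these differences was not tested beyond these values.

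**Figure D4:**
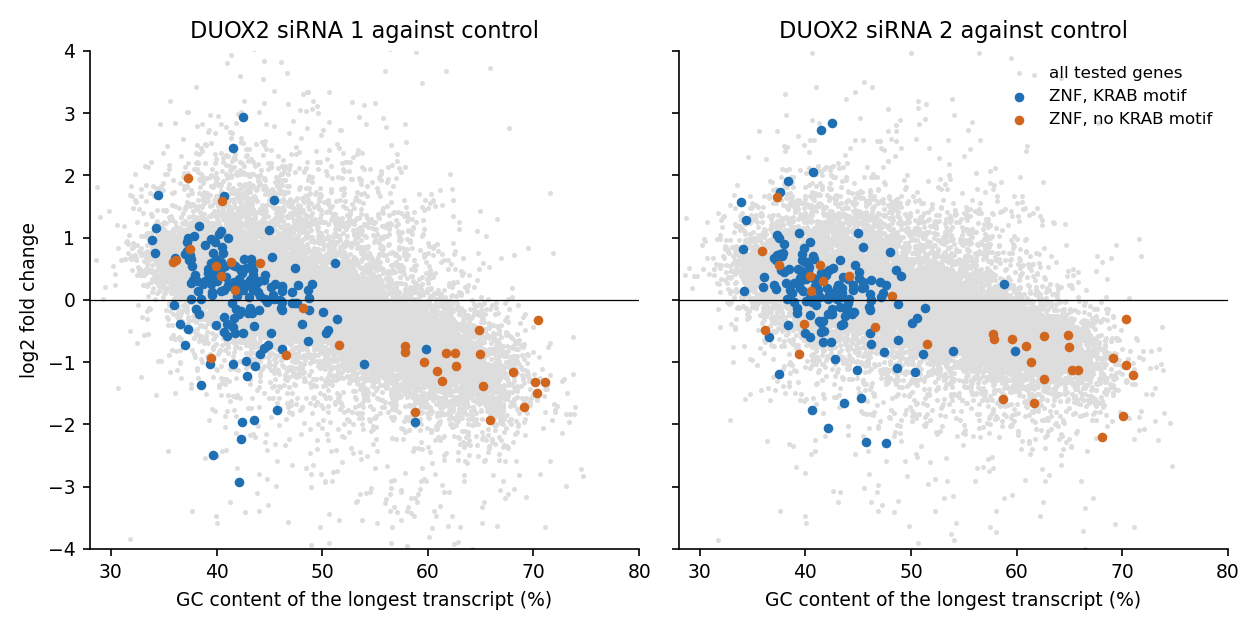
Log2 fold change (y axis) against G and C content of the longest transcript in percent (x axis), with siRNA 1 on the left and siRNA 2 on the right, for all tested genes within the axes in grey, KRAB genes in blue and genes without the motif in orange. Blue and orange points slope down with the grey points, and ZNF791, ZNF766 and ZNF440, at 41.5% to 42.5%, lie away from that slope.

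The number of fingers was a further way to order the members. Genes with 0 to 5 fingers, 12 tested, had medians of -0.85 and -0.74 and a median G and C content of 59.2%. The 53 tested genes with 6 to 10 fingers had 0.13 and 0.05, the 85 with 11 to 15 had 0.16 and 0.10, and the 46 with 16 or more had 0.24 and 0.20. Among KRAB genes alone, finger number and log2 fold change had a Spearman correlation of 0.02 for siRNA 1 and 0.10 for siRNA 2, over 163 genes that share these libraries.

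The members were also described by their position along the chromosome. With gaps of at most 500 kb, 227 of the 246 genes fell into 9 clusters of at least 5 members. The cluster nearest the centromere, from ZNF101 to ZNF254 (19668796 to 24129961), held 37 genes, 35 of them with KRAB and 13 not tested for want of counts. Of its 24 tested genes, 21 were above the control in both siRNA libraries. The share was 85.3% among other protein-coding genes under 38% G and C. In 1 of the 24 (ZNF253, with 143, 107 and 96 counts) the control was above both. The cluster's summed counts were 3389, 5688 and 5456, and its medians were 0.66 and 0.66. Of the 24 genes, 11 had an unadjusted p under 0.05, all higher, against 11.5% of all tested genes. Among other protein-coding genes under 38% G and C, 394 of 976 did so. ZNF91 and ZNF93, named after their values were seen and known for silencing SVA and LINE-1 retrotransposons, lie in it and had 231, 382 and 381 counts and 32, 48 and 46 counts. ZNF254, uncertain for its shared words, had 419, 697 and 761 counts and ZNF714 had 540, 942 and 815. The median G and C content of this cluster was 37.6%, and with the trend on composition removed its medians were 0.09 and 0.23.

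The cluster from ZNF628 to ZNF835 (55476332 to 56671783) stood at the other end. Of its 16 genes, 12 were tested and 6 carried KRAB. In both siRNA libraries 10 tested genes were below the control and 1, ZNF583, was above it. The summed counts were 3324, 1650 and 2053, the medians were -0.86 and -0.69, and an unadjusted p under 0.05 was found for 6 of the 12 genes on the lower side and 1 on the higher, against 14.5% and 11.5% of all tested genes. Among other protein-coding genes at 48% to 60% G and C, 938 of 4962 had it on the lower side, and at 60% or more 1262 of 2024 did. In these bands, 68.2% and 94.6% of the other protein-coding genes were below the control in both libraries. ZNF787, ZNF865, ZNF579 and ZNF580 lie in this cluster, with ZNF71 (252, 121 and 146 counts) and ZNF444 (266, 157 and 187 counts). The median G and C content was 58.7%, and with the trend removed the medians were 0.01 and -0.03.

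The remaining clusters lay between these. Over all tested genes, 41.9% were above the control in both libraries and 41.6% below it in both. From ZNF175 to ZNF331 (51571298 to 53580269), which holds ZNF766, 31 genes were tested, with medians of 0.28 and 0.26, 20 above the control in both libraries and 4 below. From ZNF565 to ZNF573, which holds ZNF260 and ZNF146, 22 tested genes had medians of 0.26 and 0.23, with 10 above and 2 below. From ZNF653 to ZNF791, which holds ZNF791 and ZNF440, 22 tested genes had medians of -0.09 and -0.15, with 7 above and 9 below. From ZNF264 to ZNF446, 33 tested genes had -0.16 and -0.06, with 12 above and 16 below. ZNF575 to ZNF180 had 0.25 and 0.05 over 19 tested genes, and ZNF414 to ZNF846 had 0.30 and 0.01 over 11. The 5 genes from ZNF302 to ZNF792 had -0.47 with siRNA 1 and 0.45 with siRNA 2.

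**Figure D5:**
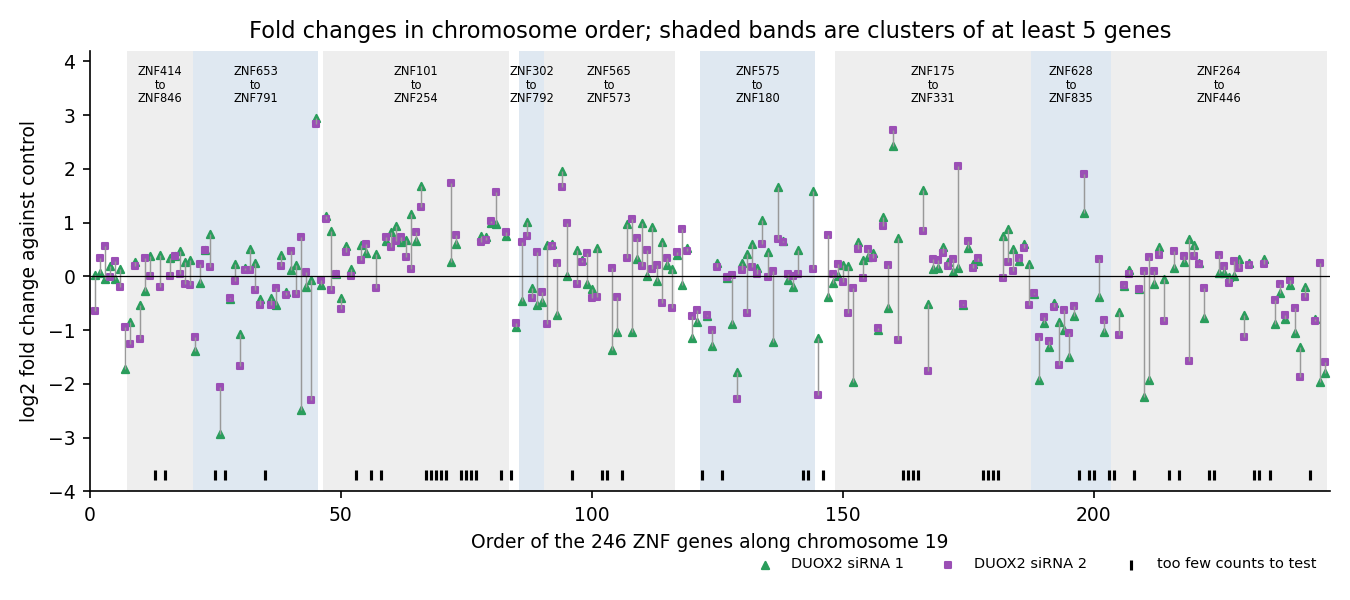
Log2 fold change (y axis) of each tested ZNF gene in its order along chromosome 19 (x axis, gene number), with triangles for siRNA 1 and squares for siRNA 2 joined by a line, and ticks at the bottom for genes with too few counts to test. Shaded bands are the 9 clusters of at least 5 genes. The ZNF101 to ZNF254 band lies above 0 in 21 of 24 genes with both siRNAs, and the ZNF628 to ZNF835 band below 0 in 10 of 12. Among other protein-coding genes, 85.3% lay above 0 with both under 38% G and C. Below 0 with both lay 68.2% at 48% to 60% and 94.6% at 60% or more.

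Some members differed between the siRNA libraries. The median absolute difference between the siRNA libraries was 0.30 in log2 over the 196 members and 0.24 over all tested genes, and 24 members (12.2%) were at least 2-fold apart, against 6.56% of all tested genes. These genes had few counts, which was not separated from this share. ZNF480 had 875 control counts, 1419 for siRNA 1 and 393 for siRNA 2, so that the control lay between the siRNA libraries. Only genes with at least 50 counts in both siRNA libraries were ranked for this; larger differences stood at lower counts, as in the uncertain ZNF709 (32, 4 and 56 counts). ZNF420 had 134, 50 and 154 counts, with siRNA 1 alone far from the control. ZNF468 had 81, 89 and 350 counts, with siRNA 2 alone far from it, but it is uncertain, since 99.2% of its 50-base words also occur in other genes, ZNF320 above all, which had 462, 315 and 333 counts.

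The partners through which KRAB proteins act were measured as a list of 23 corepressor genes. All 23 were tested and 0 passed edgeR's test; an unadjusted p under 0.05 was found for 3 higher and 3 lower, near the 11.5% and 14.5% of all tested genes. The siRNA libraries were both above the control for 12 and both below it for 10, beside 41.9% and 41.6% of all tested genes. The medians were 0.04 and 0.05. TRIM28, the scaffold that binds KRAB domains, had 6535, 3689 and 5603 counts (log2 fold change -0.81 and -0.26, edgeR adjusted p = 0.267). SETDB1, which methylates histone H3 at the sites TRIM28 marks, had 596, 615 and 619 counts (edgeR adjusted p = 0.920) and shares 13.4% of its exon bases with CERS2.

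By fitted log2 fold change, the highest of this list were ATF7IP, a cofactor of SETDB1, with 1712, 3208 and 2296 counts, SMARCAD1, a chromatin remodeller that binds TRIM28, with 932, 1678 and 1514, and CBX3, which encodes HP1 gamma, with 2925, 4407 and 4926. The lowest were UHRF1, which guides maintenance DNA methylation, with 2512, 1243 and 1675 counts, the methyltransferase gene SUV39H1 with 733, 377 and 474 (20.3% of its exon bases shared with AC231533.1), and EHMT2, which encodes the methyltransferase G9a, with 844, 451 and 566. In each of these 6 the siRNA libraries lay on the same side of the control. Base composition was again unequal between genes. With its trend removed, TRIM28 stood at 0.24 (siRNA 1) and 0.53 (siRNA 2). ATF7IP then stood at 0.45 and 0.02, SMARCAD1 at 0.24 and 0.17 and CBX3 at 0.11 and 0.32. UHRF1 stood at -0.62 and -0.33 and SUV39H1 at -0.34 and -0.20. EHMT2, at -0.03 and 0.03, no longer had the same direction with both.

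Promoters of the family were searched for sequence motifs, which the choice of genes had not used. RefSeq promoters (GRCh38.p14, the 250 bases before the gene's start) matched 215 of the 246 genes. The CCAAT box, searched as CCAATCA on both strands after these promoters had been read, was found in 59 of them (27.4%), against 6.90% of all 27305 promoters in the table. The ETS motif CCGGAAGT was found in 14.4% against 3.64%, and the E-box CACGTG in 3.72% against 6.49%. The YY1 motif AAGATGGCG was found in 2.79% against 0.641%, and the NRF1 motif in 1.86% against 1.13%. Among tested genes the CCAAT box was in 44 of 142 KRAB promoters and in 3 of 30 without the motif. These motifs do not contain one another, and a match is a description of letters only. The share of the CCAAT box is no test, since that motif was chosen on these promoters. The background was not matched: a C followed by a G occurred a median of 16 times in the family's promoters, against 11 over all promoters.

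The promoters of ZNF791, ZNF766 and ZNF440 are printed 5′ to 3′ on the gene's strand because these 3 genes stood farthest from the rest. The motif letters are in capitals, and ZNF766 held none of the motifs searched.
ZNF791, chr19:12610670-12610919, plus strand: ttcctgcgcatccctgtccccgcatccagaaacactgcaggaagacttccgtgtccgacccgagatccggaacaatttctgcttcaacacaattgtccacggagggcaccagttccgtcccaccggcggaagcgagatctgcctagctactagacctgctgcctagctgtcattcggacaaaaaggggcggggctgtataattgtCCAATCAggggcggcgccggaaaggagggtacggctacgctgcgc
ZNF766, chr19:52269337-52269586, plus strand: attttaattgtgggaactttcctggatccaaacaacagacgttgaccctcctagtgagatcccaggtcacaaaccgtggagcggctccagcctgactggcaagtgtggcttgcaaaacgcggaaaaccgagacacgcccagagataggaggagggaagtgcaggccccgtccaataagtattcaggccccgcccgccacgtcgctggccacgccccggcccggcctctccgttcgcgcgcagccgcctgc
ZNF440, chr19:11814023-11814272, plus strand: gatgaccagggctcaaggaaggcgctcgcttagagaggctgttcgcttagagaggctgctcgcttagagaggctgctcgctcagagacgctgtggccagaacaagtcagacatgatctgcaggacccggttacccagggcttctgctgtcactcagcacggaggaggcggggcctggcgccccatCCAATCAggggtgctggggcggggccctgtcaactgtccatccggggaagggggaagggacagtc
ZNF791, higher with both siRNAs, and ZNF440, lower with both, each held the CCAAT box. Of the genes at least 2-fold from the control with both siRNAs, it was found in 3 of 6 promoters on the higher side and in 1 of 8 on the lower side.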

How the data were processed

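Reads per gene had been counted by the authors in 3 RNA libraries of HCT116 cells, and the deposited table holds raw read counts and FPKM. The submitters' processing notes name Bowtie 0.12.2, GRCh38 and mm8, each without a role. The table's coordinates are those of GRCh38 (97.6% identical to GENCODE 29). How reads were counted, by which program, strand rule or multi-mapping rule, is not given in the sources used here. In the deposited values, the FPKM length equalled the sum of distinct exons within 1 base for 92.1% of 13047 genes.

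The counts were tested in edgeR 4.0.16 (R 4.3.3; TMM, filterByExpr with a minimum count of 10, quasi-likelihood fit, 1 residual degree of freedom, Benjamini-Hochberg over 17263 genes, threshold 0.05), and the script was tested on simulated data. DESeq2 1.42.0, limma 3.58.1 on log2(FPKM + 0.1), other scalings, filters and prior counts, and removal of the G and C trend (lowess, fraction 0.3) were alternatives. G and C content, fingers (regular expression C, 2 to 4 residues, C, 12, H, 3 to 5, H) and KRAB motifs came from the longest GENCODE 29 transcript or its protein. KRAB motifs were also regular expressions, and their matches were not compared with curated domains. Poisson intervals are at 95% and, like the limit of 3 counts, cover counting error only. Members and gene lists were chosen with earlier results of these data known. Named genes were ZNF791 and ZNF766, members past the test, the 8 highest and 8 lowest by the smaller of their fold changes with at least 50 counts in a library, the 6 most abundant, the 3 with the largest siRNA difference among those with at least 50 counts in both siRNA libraries, those with the most and fewest fingers, and TRIM28, SETDB1 and the 3 highest and 3 lowest corepressors by fitted log2 fold change. Others were named as neighbours, overlap partners or after their values were seen.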

Additional observations from a re-analysis of the deposited data

How the results depend on the processing

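The count of members called, 0 in edgeR, became 5 with DESeq2 and 2 at an adjusted p threshold of 0.10, and stayed 0 with total-count scaling, with no filter, with a minimum of 1 CPM per library, with the G and C trend removed and with limma on FPKM. The count of 16 members at least 2-fold from the control (6 higher, 10 lower) became 9 (3 and 6) with the trend removed and 8 (3 and 5) among members that share no exon bases with another gene, which are fewer genes. With 1 siRNA library left out it was 30 to 37 (11 to 13 higher, 19 to 24 lower), since the rule then asks for 1 library only. The median fold changes of 0.15 and 0.11 with siRNA 1 and 2 became 0.013 and 0.050 with total-count scaling, 0.0100 and 0.041 with log2(FPKM + 0.1), 0.24 and 0.036 in members without exon overlap, and reversed to -0.15 and -0.12 with the trend removed. Total-count scaling moved the median of all tested genes to -0.12 and -0.07, and members stayed 0.13 and 0.12 above it. ZNF480, at 0.06, reversed to -0.066 with total-count scaling, -0.49 with the trend removed and -0.32 with limma. With the trend removed ZNF738 reversed to -0.028, ZNF787 to 0.026 and ZNF865 to 0.080; the cause of reversals was not tested. Of the other values of named genes under an alternative, 143 kept direction and side of the threshold and 5 passed it, with DESeq2, but several of those that kept both were much smaller with the trend removed, such as ZNF358 (-1.29 to -0.096), ZNF428 (-1.15 to -0.39), ZNF580 (-1.21 to -0.38), ZNF526 (-0.74 to -0.19) and ZNF146 (0.58 to 0.20). Leaving out a library left no residual degree of freedom for the test. No paired analysis was possible because the control group holds a single library, so that the groups share fewer than 2 replicate numbers. At a median of 144.5 control counts, and with 1 control library, small changes of most members were not detectable.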
